A study of Homo sapiens with 8 samples.

Results

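The 9 genes described here are FOS, FOSL1, FOSL2, JUN, JUNB, JUND, EGR1, IER2 and IER3, which are subunits of the transcription factor AP-1 or immediate early genes, and they were taken by gene symbol from the 25192 genes of the expression tables. All 9 were found and all 9 passed the filter on low counts in both cell lines. Messenger RNA was sequenced from HT29 and SW480, which are human colorectal cancer cell lines that express truncated APC. Cells were collected 36 h after transfection with control siRNA, which the study describes as directed against firefly luciferase, or with siRNA against PRDX2, the gene of the peroxidase peroxiredoxin II (PrxII). Each of the 4 groups holds 2 libraries: HT29 with control siRNA, HT29 with PRDX2 siRNA, SW480 with control siRNA and SW480 with PRDX2 siRNA. HT29 cells grew in McCoy's 5A medium and SW480 cells in RPMI1840, both with fetal bovine serum, so that medium and cell line cannot be told apart. The samples of the lines were also deposited separately, so that deposit and cell line cannot be told apart either. The labels speak of duplicates without saying whether these were separate transfections, so the p-values measure only the spread between the libraries, which may be technical.

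AP-1 is a dimer of a JUN family protein (JUN, JUNB, JUND) with another JUN protein, a FOS family protein (FOS, FOSB, FOSL1, FOSL2) or a relative such as ATF3, and it binds short DNA elements in the promoters and enhancers of growth and stress genes. Immediate early genes are switched on within minutes of a growth factor or stress signal without the need for new protein, through MAP kinases and factors such as SRF and its ELK partners, and many of their messages are short lived. JUN and its upstream kinase pathways are known to respond to peroxides, and AP-1 activity is known to be high in many colorectal tumors.

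The targeted gene was lower in every PRDX2 siRNA library. In HT29 cells PRDX2 was at 148.1 and 153.8 CPM (counts scaled to library size) in controls and at 82.4 and 83.2 CPM with PRDX2 siRNA, and in SW480 cells it went from 209.1 and 246.1 to 69.5 and 70.7 CPM. The libraries held between 8857442 and 10164137 expected counts, so that 3 counts in a library, the floor used here, were worth 0.295 to 0.339 CPM. The SW480 control libraries stood apart from the other duplicates: their counts differed by a chi-square of 11.2 per degree of freedom, against 1.43 to 2.13 for the other 3 pairs. Genes with GC-rich transcripts were higher in control library 2 than in control library 1 (Spearman's rho = 0.80 across 10528 genes, which are not independent replicates), so values in SW480 cells are also given with each library corrected for GC content. Epithelial and other cell type markers were read as a check of the lines. EPCAM, KRT8 and KRT18 were detected in both lines, and KRT20 and LGALS4 reached at most 10 and 5 counts in any SW480 library. CDH1 reached at most 5844 counts in HT29 and 294 in SW480 libraries. Of the stromal and immune markers, PTPRC and DCN were at 0 in all 8 libraries. Others of that list had counts, at most 237 for COL1A1 and 47 for PDGFRB in SW480 libraries and 66 for CD14 in HT29 libraries.

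On GRCh37 (hg19), JUN lies at chr1:59246463-59249719 on the minus strand, FOS at chr14:75745531-75748933 on the plus strand and EGR1 at chr5:137801168-137804992 on the plus strand. JUND lies at chr19:18390504-18392432 on the minus strand, FOSL1 at chr11:65659520-65667859 on the minus strand and FOSL2 at chr2:28615725-28640184 on the plus strand. IER2 lies at chr19:13261225-13265725 on the plus strand and IER3 at chr6:30710976-30712324 on the minus strand. JUNB lies at chr19:12902300-12904129 on the plus strand and is the neighbor of PRDX2 itself, with their 3′ ends facing each other across 3504 bases that hold 0 annotated genes. JUN, JUNB and JUND each consist of 1 exon, as do 4.84% of the 17539 coding genes in the tables. Transcript GC content ran from 52.8% (FOS) to 69.9% (JUND), above the median of 48.8% over all genes for each of the 9. The pentamer ATTTA is the core of the AU-rich elements found in short-lived messages. Its median over all genes was 1.60 per kb of 3′ untranslated region. It occurred 8.14 times per kb in IER3, 6.20 in FOS, 4.0 in JUNB, 2.34 in JUN and 1.85 in FOSL2. JUND (1.34), FOSL1 (1.19), EGR1 (0.82) and IER2 (0) lay below that median. The kit used does not mark the strand of a read, and the annotation places an exon of HOOK2 over JUNB, ENSG00000267598 over IER2, and HCG20 and IER3-AS1 over IER3, so reads from these pairs cannot be told apart. HOOK2, the only one of these with a row of its own symbol in the tables, was at 23.8 to 45.0 CPM.

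The 250 bases before the start site are shown for JUN, JUND, FOS and EGR1, since these hold the clearest matches to elements through which this class of genes is known to be controlled. They come from RefSeq on GRCh38.p14 (not the build of the expression tables), where 7 of the 9 genes had an entry, FOSL1 and IER3 being the other members. Each is written 5′ to 3′ in the sense of its gene. Capitals mark the cyclic AMP response element TGACGTCA, its core TGACG on either strand, the JUN site TGACATCA, the CArG box bound by SRF and the TATA box TATAAA. The regions are JUN chr1:58784048-58784297 (minus strand), JUND chr19:18281623-18281872 (minus strand), FOS chr14:75278578-75278827 (plus strand) and EGR1 chr5:138465229-138465478 (plus strand).
JUN: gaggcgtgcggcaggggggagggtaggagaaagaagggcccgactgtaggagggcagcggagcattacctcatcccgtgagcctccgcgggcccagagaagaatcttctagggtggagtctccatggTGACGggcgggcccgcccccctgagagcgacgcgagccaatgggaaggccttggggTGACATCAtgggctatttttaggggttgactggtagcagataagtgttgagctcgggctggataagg
JUND: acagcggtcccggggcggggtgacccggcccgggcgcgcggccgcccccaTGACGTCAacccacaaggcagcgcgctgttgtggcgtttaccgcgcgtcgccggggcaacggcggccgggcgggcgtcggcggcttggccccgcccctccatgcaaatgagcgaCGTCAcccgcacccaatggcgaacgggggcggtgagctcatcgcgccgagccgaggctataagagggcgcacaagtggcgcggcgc
FOS: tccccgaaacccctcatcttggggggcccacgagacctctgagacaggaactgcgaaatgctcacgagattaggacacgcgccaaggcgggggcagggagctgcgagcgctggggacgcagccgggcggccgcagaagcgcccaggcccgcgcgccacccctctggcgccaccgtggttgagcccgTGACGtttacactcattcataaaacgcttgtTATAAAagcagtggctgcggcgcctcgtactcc
EGR1: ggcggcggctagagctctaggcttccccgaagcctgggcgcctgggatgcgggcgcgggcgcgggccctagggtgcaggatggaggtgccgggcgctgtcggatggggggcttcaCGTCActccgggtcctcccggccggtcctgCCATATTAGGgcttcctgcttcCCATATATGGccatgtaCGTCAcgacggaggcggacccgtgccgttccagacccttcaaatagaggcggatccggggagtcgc
Motifs were searched on both strands of 300 bases, from 250 before to 50 after the start site. The core TGACG was in 7 of 7 members and in 24.6% of all 35116 RefSeq promoters of that length, and TGACGTCA, which contains it, was in JUND (first base at −200) and in 1.85% of promoters. JUN held TGACATCA at −67 (2.61% of promoters). EGR1 held 2 CArG boxes, at −105 and −83 (1.29% of promoters). FOS and JUNB held TATAAA at −33 and −31 (11.5% of promoters), FOSL2 held the AP-1 element TGACTCA after its start site, at 5 (4.95%), and GCGTGGGCG, an EGR element, was in 0 members (0.79%). These matches are descriptions of letters and not evidence of binding in these cells.

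Most of the 9 genes rose in HT29 cells after PRDX2 depletion. JUN, EGR1, FOS, FOSL1, JUND and IER3 passed the test as higher (6 of 9, against 7.76% of the 12961 genes tested, and 17.6% in either direction), 0 passed as lower, and FOSL2, JUNB and IER2 did not pass. Both PRDX2 siRNA libraries lay above both control libraries for 8 of the 9 genes, against 28.3% of all genes tested. The median log2 ratio was 0.36 over the 9 genes and -0.00 over all genes. In bulk RNA, a change in the number of cells that express a gene and a change in the RNA per cell cannot be told apart.

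**Figure D1:**
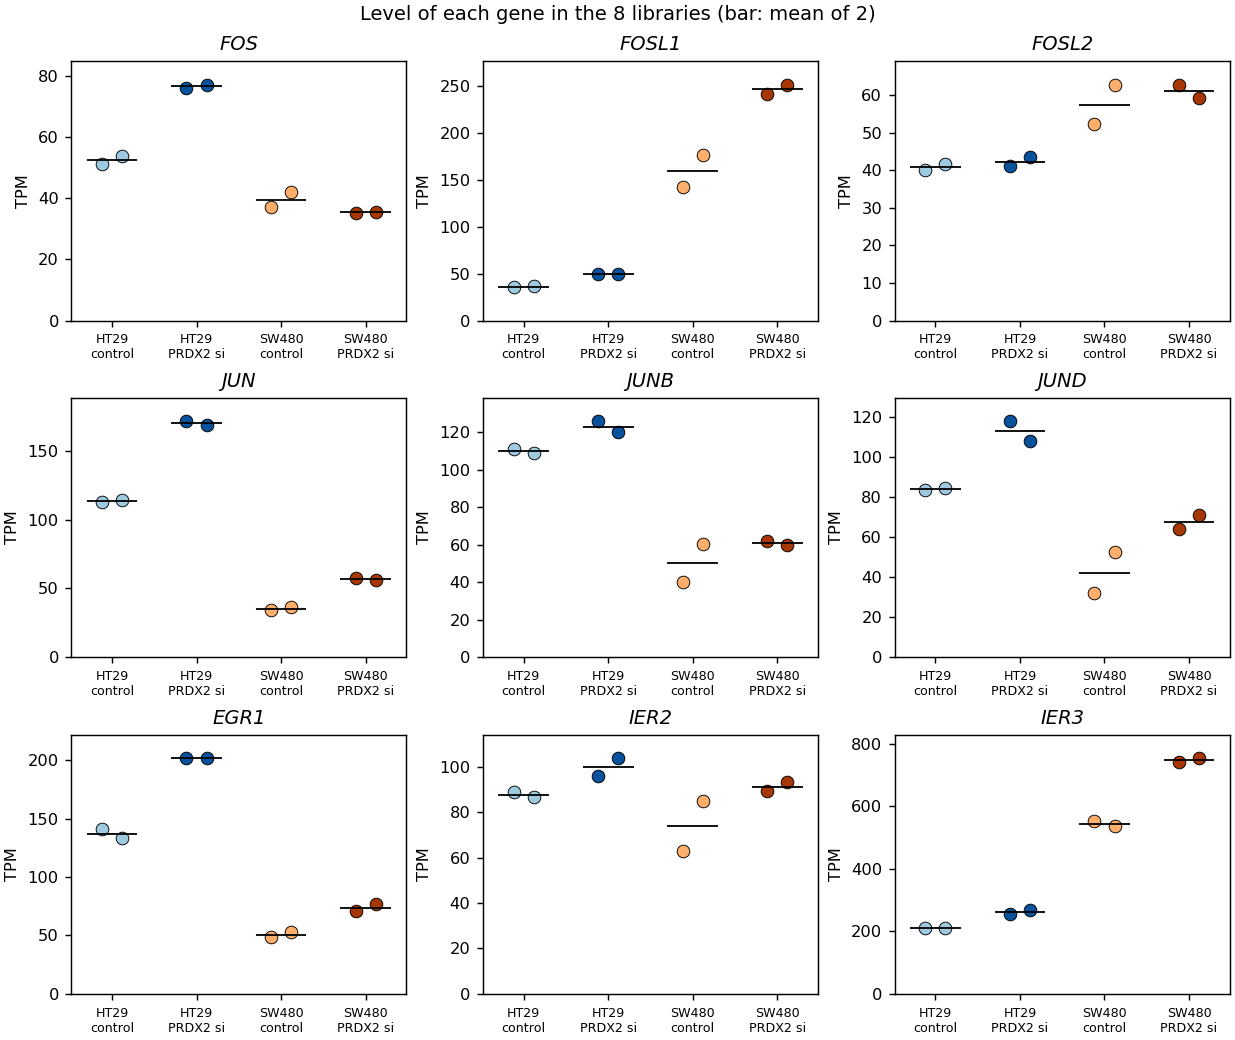
Level of the 9 genes in each library, in TPM, which scales counts by transcript length and library (linear axes from 0). Each point is a library and each bar the mean of 2; JUN, EGR1 and FOS separate the HT29 groups with no overlap, while the SW480 control libraries spread widely for JUNB and JUND.

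JUN encodes the founding subunit of AP-1. It was at 173 and 176 CPM in HT29 controls and at 251 and 248 CPM with PRDX2 siRNA. The groups were far apart compared with their duplicates, and JUN rose 1.43-fold, a log2 ratio of 0.52 (standard error 0.04, adjusted p = 3.58e-08, edgeR's quasi-likelihood test, p adjusted by Benjamini-Hochberg over all genes tested). JUND, a subunit that is usually expressed at a steady level, was at 71.2 and 72.0 CPM and at 95.6 and 88.1 CPM. Its groups did not overlap, and it rose by a log2 ratio of 0.36 (standard error 0.06, adjusted p = 0.000175, edgeR). JUNB, which in many settings opposes JUN, was at 91.5 and 89.9 CPM and at 99.1 and 95.3 CPM. The groups did not overlap, but the log2 ratio of 0.10 (95% interval -0.00 to 0.20, adjusted p = 0.186, edgeR) did not pass. PRDX2, its neighbor on chromosome 19, fell in the same libraries by 0.87 on the log2 scale (adjusted p = 1.15e-09, edgeR).

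Of the FOS family, FOS, the classical growth factor-induced subunit, was at 50.4 and 53.2 CPM in HT29 controls and at 71.6 and 73.0 CPM with PRDX2 siRNA. The groups did not overlap, and FOS rose 1.40-fold, a log2 ratio of 0.48 (standard error 0.06, adjusted p = 1.72e-05, edgeR). FOSL1, which encodes FRA1, a subunit linked to invasion of tumor cells, was at 26.7 and 27.8 CPM and at 36.1 and 36.3 CPM. It rose 1.33-fold, a log2 ratio of 0.41 (standard error 0.08, adjusted p = 0.0013, edgeR). FOSL2, which encodes FRA2, was at 74.0 and 76.8 CPM and at 72.5 and 76.9 CPM, so that its groups overlapped. Its log2 ratio of -0.01 had a 95% interval of -0.13 to 0.10 (adjusted p = 0.897, edgeR), which leaves out the size of change seen for JUN and FOS.

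EGR1, a zinc finger factor that SRF and ELK proteins switch on, was at 203.2 and 192.9 CPM in HT29 controls and at 278 and 279 CPM with PRDX2 siRNA. The groups did not overlap, and EGR1 rose 1.41-fold, a log2 ratio of 0.49 (standard error 0.04, adjusted p = 6.35e-08, edgeR). IER3, a stress-induced regulator of cell survival, was at 117.1 and 116.9 CPM and at 136 and 143 CPM. It rose 1.19-fold, the smallest of the 6 calls, with a log2 ratio of 0.25 (standard error 0.05, adjusted p = 0.00107, edgeR). IER2 was at 83.1 and 81.0 CPM and at 85.7 and 93.2 CPM, and its log2 ratio of 0.12 (95% interval 0.01 to 0.24, adjusted p = 0.137, edgeR) did not pass.

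The 6 calls in HT29 cells were made with any 1 library left out, and also with DESeq2. In a fit of all 8 libraries, which carries the larger spread of SW480 cells, JUN, EGR1 and FOS stayed called, while FOSL1 (adjusted p = 0.156, edgeR), JUND (0.366) and IER3 (0.115) did not. After the correction for GC content 8 of the 9 genes were called higher (against 11.1% of all genes), since JUNB (0.16, adjusted p = 0.0303) and IER2 (0.17, adjusted p = 0.0195, edgeR) then passed.

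In SW480 cells, JUN rose and no other member passed the test (1 of 9 higher, against 1.22% of the 14112 genes tested, and 3.3% in either direction). Both PRDX2 siRNA libraries lay above both control libraries for 5 of the 9 genes (29.6% of all genes), and these were JUN, JUND, FOSL1, EGR1 and IER3. The median log2 ratio was 0.37 over the 9 genes, of which 7 were above 0, and 0.00 over all genes. Across all genes the log2 ratio in SW480 cells moved with transcript GC content (Spearman's rho = 0.55 across 12419 genes, which are not independent replicates), and with the GC correction the median of the 9 genes was 0.15, with 5 above 0, beside 0.01 over all genes. JUN was at 51.3 and 54.6 CPM in controls and at 81.6 and 79.6 CPM with PRDX2 siRNA. The control libraries were close together for this gene, and the log2 ratio was 0.61 (standard error 0.11, adjusted p = 0.03, edgeR), a rise of 1.52-fold. The call was lost without either PRDX2 siRNA library (adjusted p = 0.459 without library 1 and 0.442 without library 2, edgeR), at log2 ratios of 0.59 and 0.63, where the remaining library was assumed to vary like the control libraries.

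**Figure D2:**
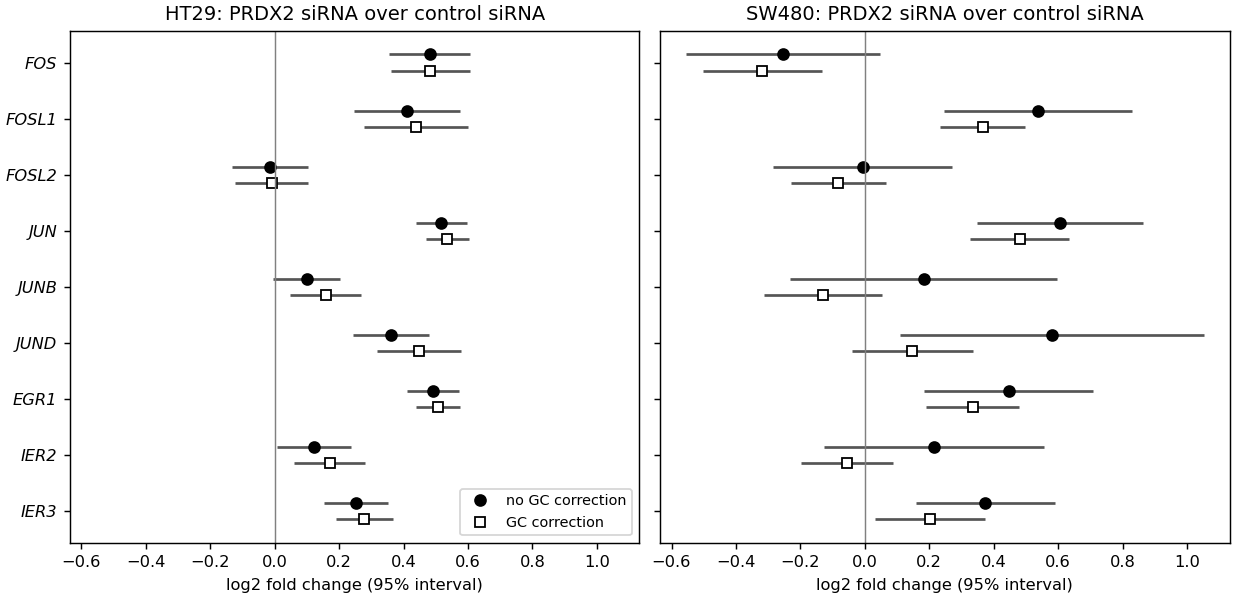
Log2 fold change of each gene after PRDX2 siRNA in HT29 and SW480 cells with 95% intervals from edgeR, without (filled circles) and with (open squares) a correction for GC content. The intervals are wider in SW480 cells, where the correction moves JUND from 0.58 to 0.15 and JUNB from 0.18 to -0.13.

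EGR1 and IER3 were separated in SW480 cells but missed the threshold. EGR1 was at 68.3 and 75.6 CPM in controls and at 94.1 and 102.1 CPM with PRDX2 siRNA, a log2 ratio of 0.45 (95% interval 0.18 to 0.71, adjusted p = 0.0695, edgeR). IER3 was at 298.7 and 293.6 CPM and at 381 and 387 CPM, a log2 ratio of 0.37 (95% interval 0.16 to 0.59, adjusted p = 0.0678, edgeR). FOSL1 was at 104.9 and 131.8 CPM and at 168 and 175 CPM, a log2 ratio of 0.54 (95% interval 0.24 to 0.83, adjusted p = 0.0573, edgeR). The control libraries of FOSL1 differed more than those of EGR1 or IER3, and no PRDX2 siRNA library reached down to them. FOS lay lower in both PRDX2 siRNA libraries, with 35.6 and 40.9 CPM in controls and 31.9 and 32.3 CPM after depletion, a log2 ratio of -0.25 (95% interval -0.56 to 0.05, adjusted p = 0.271, edgeR). FOSL2 was at 94.4 and 113.8 CPM and at 106.7 and 100.8 CPM, with overlapping groups and a log2 ratio of -0.01 (95% interval -0.28 to 0.27, adjusted p = 0.98, edgeR).

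The 3 genes with the most GC-rich transcripts were those on which the SW480 control libraries disagreed most. JUND (69.9% GC) was at 26.5 and 44.1 CPM in controls and at 50.1 and 55.8 CPM with PRDX2 siRNA. JUNB (64.9% GC) was at 32.4 and 49.1 CPM and at 47.0 and 45.7 CPM. IER2 (63.0% GC) was at 57.3 and 78.1 CPM and at 77.0 and 80.3 CPM. Control library 2 exceeded control library 1 by 0.73, 0.59 and 0.44 on the log2 scale for these genes, and by -0.03 (IER3) to 0.33 (FOSL1) for the other 6. None of the 3 passed the test, with log2 ratios of 0.58 for JUND (adjusted p = 0.139, edgeR), 0.18 for JUNB (0.56) and 0.21 for IER2 (0.403). For JUND the log2 ratio was 0.26 without control library 1 and 0.99 without control library 2. For JUNB it was -0.09 and 0.51, and for IER2 it was 0.01 and 0.45, so that a single control library set the sign or size of all 3.

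With each SW480 library corrected for GC content, 3 members were called higher (against 8.97% of all genes) and 1 lower (9.97%). The higher genes were JUN (log2 ratio 0.48, adjusted p = 0.000646, edgeR), FOSL1 (0.37, adjusted p = 0.00146) and EGR1 (0.34, adjusted p = 0.00439), and the lower gene was FOS (-0.32, adjusted p = 0.0212). IER3 had 0.20 (adjusted p = 0.0928, edgeR), JUND 0.15 (0.265), IER2 -0.06 (0.606), FOSL2 -0.08 (0.44) and JUNB -0.13 (0.32). Without control library 1 FOS had a log2 ratio of -0.35, and without control library 2 it had -0.16.

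The response of FOS differed between the cell lines. FOS rose in HT29 cells and had a negative log2 ratio in SW480 cells, and the difference of 0.74 on the log2 scale (HT29 minus SW480, standard error 0.13, 95% interval 0.44 to 1.03) passed the test of the difference (adjusted p = 0.0330, edgeR). It was the only one of the 9 genes to do so, against 1.12% of the 14772 genes tested. The call held with DESeq2 and with the GC correction. It also held without either SW480 control library, but those fits no longer hold the widest spread between duplicates and cannot back it. It was lost in limma on log2 TPM with pseudocounts of 1 (0.0532) and 0.1 (0.0698), and without any 1 of the other 6 libraries (adjusted p from 0.186 to 0.217, edgeR), at differences of 0.70 to 0.77. PRDX2 also fell further in SW480 cells, with a difference of 0.84 (adjusted p = 0.0128, edgeR, lost without any 1 library other than the SW480 controls), and the part of this in the FOS result was not tested. Without the GC correction 2 of the 9 differences were above 0 (median -0.09). With it 9 of 9 were (median 0.16, beside 0.01 over all genes), so the direction for most of the other genes depended on the correction. Uncorrected, the difference for JUN was -0.09 (95% interval -0.31 to 0.13) and for EGR1 0.05 (-0.20 to 0.29). The differences of IER3 (-0.12, 95% interval -0.32 to 0.09), FOSL1 (-0.12, -0.47 to 0.22), JUND (-0.22, -0.74 to 0.30), IER2 (-0.09, -0.46 to 0.29), JUNB (-0.08, -0.52 to 0.36) and FOSL2 (-0.01, -0.30 to 0.29) did not pass.

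The make-up of AP-1 transcripts differed between the lines before any depletion. Per transcript length, FOS was the most abundant FOS family message in HT29 control cells, with 39.4% and 39.8% of the summed TPM of FOS, FOSB, FOSL1 and FOSL2. In SW480 control cells FOSL1 was the most abundant, with 60.4% and 61.9%, and FOS held 15.7% and 14.7%. With PRDX2 siRNA the FOS share was 44.1% and 43.6% in HT29 cells and 10.23% and 10.15% in SW480 cells, while the FOSL1 share was 70.3% and 71.7% in SW480 cells and 28.9% and 28.2% in HT29 cells. FOSB stayed at or below 3.7% in every library. Summed TPM of the family was 129.8 and 135.3 in HT29 control cells and 173 and 177 with PRDX2 siRNA, and it was 235 and 286 in SW480 control cells and 343 and 350.4 with PRDX2 siRNA.

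The JUN family showed the reverse order between the lines. Its summed TPM was 307 and 308 in HT29 control libraries and 106 and 149 in SW480 control libraries. In HT29 control cells JUN held 36.7% and 37.2% and JUNB slightly less in both libraries, at 36.1% and 35.3%, with JUND below both at 27.2% and 27.5%. With PRDX2 siRNA the JUN share in HT29 cells was 41.3% and 42.5% and that of JUNB 30.3% in both libraries. In SW480 control cells the shares of JUN were 32.2% and 24.2%, and those of JUND 30.0% and 35.3%, so the order of these 2 genes turned between the duplicates and is not resolved.

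**Figure D3:**
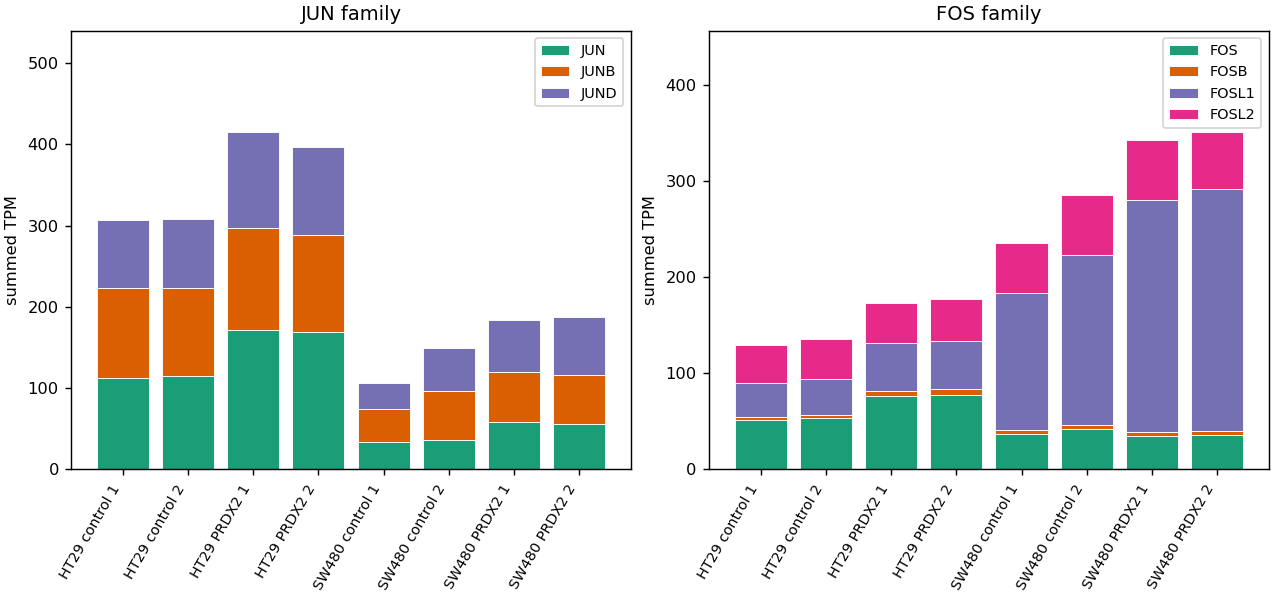
Summed TPM of the JUN family (JUN, JUNB, JUND) and the FOS family (FOS, FOSB, FOSL1, FOSL2) in each of the 8 libraries, as stacked bars. HT29 cells carry more JUN family and SW480 cells more FOS family transcript, mostly FOSL1.

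Between the lines with control siRNA, 8 of the 9 genes differed, which is read against 67.5% of the 14346 genes tested. JUN (log2 difference 1.82, HT29 over SW480), EGR1 (1.56), JUNB (1.25), JUND (1.11) and FOS (0.53) were higher in HT29 cells, with adjusted p between 1.53e-06 and 0.00586 (edgeR). FOSL1 (-2.02), IER3 (-1.24) and FOSL2 (-0.37) were lower in HT29 cells, with adjusted p between 4.5e-06 and 0.0277 (edgeR). IER2 did not pass (0.37, adjusted p = 0.056, edgeR). With the GC correction 6 of the 9 genes were called higher and 2 lower, beside 82.4% of all genes in either direction. With the replicate number as a block 6 were higher and 3 lower (70.0% of all genes), so that IER2 passed there. FOSL2 lost its call without either HT29 control library (adjusted p = 0.328 and 0.242, edgeR), and after the correction for GC content it was at 0.03 while the median of all genes moved to 0.31. FOS lost its call without HT29 control library 2 (adjusted p = 0.0946, edgeR). IER3 was the most abundant of the 9 in both lines per transcript length, at 211 and 209.96 TPM in HT29 control cells and 552 and 536 TPM in SW480 control cells. Among all 25192 genes it ranked 749 and 748 by TPM in HT29 control libraries and 592 and 556 with PRDX2 siRNA, and in SW480 cells it ranked 233 and 242 and then 153 and 151.

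Other AP-1 partners and immediate early genes were read from lists that hold no member. Of 11 other AP-1 partners tested in HT29 cells, 3 rose and 0 fell (7.76% and 9.82% of all genes did), with a median log2 ratio of 0.14. ATF3, a stress-induced partner of JUN proteins, went from 42.4 and 42.3 CPM to 81.0 and 79.9 CPM, a log2 ratio of 0.93 (adjusted p = 5.61e-09, edgeR). FOSB went from 5.85 and 5.43 to 9.07 and 10.8 CPM (0.81, adjusted p = 0.00296, edgeR), and MAFG, a small MAF protein that pairs with NRF factors, had 0.22 (adjusted p = 0.00381, lost at 0.240 with all 8 libraries in 1 fit). In SW480 cells 14 were tested and MAFG rose (0.53, adjusted p = 0.0410, edgeR), with a median of 0.01. With the GC correction MAFG had 0.38 (adjusted p = 0.00112, edgeR). BATF2 (-1.03, adjusted p = 0.00221, edgeR) and JDP2 (-0.64, 0.0175) were then called lower, beside 9.97% of all genes. The SW480 call of MAFG was lost without either PRDX2 siRNA library (adjusted p = 0.57 and 0.54, edgeR).

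Of 24 other immediate early genes tested in HT29 cells, 8 rose and 0 fell (median 0.10), beside 7.76% and 9.82% of all genes. The 4 with the smallest p were PLK2, a kinase of the stress response (log2 ratio 0.33), PPP1R15A, which restores translation after stress (0.53), RHOB, a short-lived GTPase (0.64), and MCL1, a short-lived survival protein (0.25), with adjusted p from 9.07e-08 to 4.28e-06 (edgeR). MCL1 was not called with all 8 libraries in 1 fit (0.232). With the GC correction NFKBIZ was called lower in HT29 cells (-0.18, adjusted p = 0.0233, edgeR), as were 1311 of the 11422 genes tested. In SW480 cells 26 were tested, and without the GC correction 0 rose and 2 fell (2.08% of all genes fell), with a median of 0.13. The 2 were CYR61 and CTGF, secreted matricellular proteins that are also known targets of YAP. CYR61 went from 351 and 325 CPM to 161 and 158 CPM (-1.08, adjusted p = 0.00262, edgeR), and CTGF from 28.1 and 29.3 CPM to 8.43 and 10.1 CPM (-1.63, adjusted p = 0.00383). Their difference between the lines passed the test, at 1.23 for CYR61 (adjusted p = 0.00578, edgeR) and 1.52 for CTGF (0.0124). With the GC correction KLF6 (0.31), PLK2 (0.27) and KLF10 (0.23) were called higher in SW480 cells, with adjusted p from 0.00426 to 0.0196 (edgeR). GADD45B (-0.60, adjusted p = 0.00501, edgeR) and NR4A1 (-0.27, 0.0399) were called lower. Of all genes, 8.97% were called higher and 9.97% lower in that fit. CYR61 and CTGF had no matched GC value and were not in it. The SW480 calls of CYR61 and CTGF were made with any 1 library left out, while those of the difference were lost without single libraries, with adjusted p up to 0.0779 for CYR61 and 0.137 for CTGF (edgeR), where the differences were 1.12 to 1.27 and 1.38 to 1.65.

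Few of the genes that signal to these factors passed the test. Of 19 MAP kinases, SRF and ELK factors and their cofactors tested in HT29 cells, 0 rose and 2 fell (9.82% of all genes fell), which were MAP2K2, a kinase above ERK (-0.22, adjusted p = 0.00889, edgeR), and ELK4, an SRF partner (-0.19, adjusted p = 0.0269). Neither was called by DESeq2 (adjusted p = 0.101 and 0.224) or with all 8 libraries in 1 fit (0.363 and 0.370), and ELK4 was lost without any 1 HT29 library and MAP2K2 without PRDX2 siRNA library 1 (0.079, edgeR). The median was -0.01 in HT29 cells, and in SW480 cells 0 of 19 passed without the GC correction, with a median of 0.11. With it ELK3 (0.47, adjusted p = 0.00356, edgeR) and RPS6KA3 (0.20, 0.0349) were called higher there, beside 8.97% of all genes. In HT29 cells the correction called RPS6KA3 (0.10, adjusted p = 0.0226, edgeR) and NAB2 (0.22, 0.0302) higher, beside 11.1% of all genes. MAP2K2 and ELK4 were still called lower in that fit. Of 9 AP-1 target genes tested in HT29 cells, 2 rose and 4 fell (median -0.16), again beside 7.76% and 9.82%. HBEGF, a ligand of the EGF receptor, went from 28.4 and 29.0 CPM to 57.0 and 57.1 CPM (0.99, adjusted p = 1.76e-08, edgeR). TIMP1, a protease inhibitor, had -0.28, and IVL, a structural protein of squamous cells with at most 21 counts in a library, -1.5. IVL was lost without either PRDX2 siRNA library (adjusted p = 0.0628 and 0.0672, edgeR), and with all 8 libraries in 1 fit neither TIMP1 (0.276) nor IVL (0.15) was called. In SW480 cells 0 of 12 rose and 2 fell without the GC correction (1.22% and 2.08% of all genes). Among the latter was the intermediate filament gene VIM (-0.40, adjusted p = 0.0472, edgeR), which lost its call without either PRDX2 siRNA library. With the correction VIM had -0.49 (adjusted p = 3.08e-05, edgeR). MMP1 was then called higher (1.94, adjusted p = 0.0114, edgeR), at 9 and 3 counts in controls and 20 and 27 with PRDX2 siRNA. The difference between the lines passed for HBEGF (1.27, adjusted p = 0.00543, edgeR), and was lost without any 1 library other than the SW480 controls (up to 0.0715, edgeR).

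Genes known to respond to heat and handling were read beside these results, since immediate early genes respond to handling too. In HT29 cells 4 of 6 fell and 1 rose (9.82% and 7.76% of all genes), with a median of -0.40, and their summed level went from 3022 and 2983 CPM to 2394 and 2396 CPM. HSPA8 had -0.47, HSPB1 -0.49, HSPA1A -0.45 and HSPA1B -0.36, the last 2 being near-identical copies whose reads may be split uncertainly. With all 8 libraries in 1 fit the calls of HSPB1 (adjusted p = 0.237), HSPA1A (0.0565) and HSPA1B (0.201, edgeR) were lost. In SW480 cells 0 of 6 passed (median 0.10), with summed levels of 4374 and 4163 CPM and of 4044 and 4023 CPM. HSPA1B had 0.49 there, and 0.32 with the GC correction, which called it higher (adjusted p = 0.00694, edgeR, beside 8.97% of all genes). Its difference between the lines passed the test (-0.85, adjusted p = 0.0407, edgeR). That call was lost in both limma fits and without any 1 library other than the SW480 controls. The part of handling in the results of the 9 genes was not tested. Stromal and immune markers summed to 8.31 to 12.8 CPM in HT29 libraries and 25.5 to 33.1 CPM in SW480 libraries, with 0 of 2 and 0 of 3 tested genes called. With the GC correction COL1A1 (-0.45, adjusted p = 0.0165, edgeR) and PDGFRB (-0.86, 0.0258) were called lower in SW480 cells, beside 9.97% of all genes. Of 8 colon epithelial markers tested in HT29 cells, KRT20 (0.39) and CDX2 (0.58) rose and KRT18 (-0.26) and KRT8 (-0.14) fell, with adjusted p from 1.13e-11 to 0.00668 (edgeR), and CDX2 (0.112) and KRT8 (0.542) were not called with all 8 libraries in 1 fit. Of 6 tested in SW480 cells KRT18 fell (-0.37, adjusted p = 0.0210, edgeR), a call lost in limma and without either PRDX2 siRNA library. With the GC correction KRT18 (-0.55, adjusted p = 0.000261, edgeR) and KRT8 (-0.25, 0.000163) were called lower there. The part of these markers in the results of the 9 genes was not tested.

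The gene most like each member over the 8 libraries was sought by Pearson's correlation of log2 CPM among 11803 genes with a mean of at least 5 CPM. The nearest were SLC43A1 for JUN (r = 1.00), AARS for EGR1 (0.999), PSPH for FOS (0.995), SHPK for FOSL1 (0.999) and DGCR6 for IER3 (0.999). For the others they were ARID1A for JUNB (0.998), COPS7B for JUND (0.994), SLC27A1 for FOSL2 (0.994) and THRA for IER2 (0.985). These values describe 8 libraries in which the 2 cell lines form separate clusters, and the largest of so many correlations is high by selection.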

How the data were processed

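The authors prepared messenger RNA libraries with a TruSeq RNA v2 kit, aligned the reads to hg19 with MapSplice and estimated levels with RSEM. Per library they deposited the expected count of each gene symbol, the TPM, and the effective and full transcript length, which was not used for tests. The submitters' processing notes also name FastQC and DESeq2. Here the deposited expected counts were rounded and tested with edgeR 4.0.16 in R 4.3.3 (glmQLFit and glmQLFTest, TMM), and p-values were adjusted by Benjamini-Hochberg at a threshold of 0.05. A gene had to reach 10 counts in 2 or more libraries of the fit. Each cell line was fitted alone (4 libraries), the difference in 1 fit of 8, and the control libraries of both lines in another. Intervals are at 95%. CPM were computed per line, and nearest genes and summed list levels were taken from them. TPM, as deposited, were used for family shares and ranks between genes and lines. Precision was limited by duplicates and by totals of 8857442 to 10164137 counts, and counting floors cover counting error only.

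Alternatives were RLE normalization, no filter, DESeq2 1.42.0, limma 3.58.1 on log2 TPM with a pseudocount of 1 or 0.1 for genes at 1 TPM or more in 2 libraries, a replicate block, a loess offset (span 0.5) on transcript GC content (GENCODE on GRCh37, 82.3% of symbols matched and 88.0% or more of tested genes), that offset with the block, all 8 libraries in 1 fit, and leaving out each library. Same-numbered libraries were not taken as pairs. The members and lists were chosen with earlier results of these data known, so they give no independent support. Beside the members, at most 4 called genes with the smallest p were named per list and comparison, and 1 nearest gene per member. Listed genes called in SW480 cells only with the GC correction were named as well, and so were some in HT29 cells. Some listed genes are counted but not reported here by name. Scripts were tested on simulated counts.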

Additional observations from a re-analysis of the deposited data

Results flagged for a closer look

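The effect of PRDX2 siRNA on FOS differed between the cell lines by 0.74 on the log2 scale (HT29 minus SW480, adjusted p = 0.0330, edgeR test of the difference). FOS was higher in both HT29 libraries with PRDX2 siRNA than in both controls and lower in both SW480 libraries than in both controls. The value ran from 0.62 to 0.83 with a library left out, and it was 0.80 after the correction for GC content. The call was lost in both limma fits and without any 1 library other than the SW480 controls. Without a SW480 control library, the widest spread between duplicates no longer enters the fit.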

How the results depend on the processing

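In HT29 cells the number of genes called went from 2279 to 1029 with DESeq2 and 185 with all 8 libraries in 1 fit, which called 3 members. The split of calls was 1006 higher and 1273 lower in edgeR, and 1221 and 540 in limma on log2(TPM + 1), where the median of all genes moved to 0.06 (0.09 in SW480 cells). In SW480 cells, 466 genes became 209 and 185 with limma at pseudocounts of 1 and 0.1, 1727 with the replicate block, 2352 with the GC correction, 2923 with both, 2415 with all 8 libraries, and 87 to 7364 with a library left out, few without a PRDX2 siRNA library and many without a control library. Members called in SW480 cells were 3 with DESeq2, 5 with the replicate block, 4 with the GC correction, 5 with both, 5 with all 8 libraries, and 0 to 7 with a library left out. Genes whose effect differed between lines numbered 267 without a filter, 302 with DESeq2, 93 and 48 with limma, 349 with the replicate block, 1001 with the GC correction, 1012 with both, and 6 to 5237 with a library left out. Members among them were 0 in both limma fits (0.62% and 0.32% of all genes). With a library left out, members were called only without a SW480 control library, where calls over all genes were also many.

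Some log2 fold changes turned sign. FOSL2 was 0.049 and 0.050 with limma and -0.055 to 0.031 with a library left out in HT29 cells, and 0.089 and 0.090 and -0.14 to 0.13 in SW480 cells. With the GC correction, alone and with the block, JUNB was -0.13 and -0.13 and IER2 -0.055 and -0.054 in SW480 cells, and FOSL2 was 0.027 and 0.030 between the control groups. JUNB ran from -0.086 to 0.51 with a library left out. The difference between lines became 0.072 and 0.072 for FOSL1, 0.069 and 0.067 for FOSL2 (0.0011 without a filter), 0.048 and 0.049 for JUN, 0.29 and 0.29 for JUNB, 0.33 and 0.33 for JUND, 0.23 and 0.22 for IER2 and 0.073 and 0.071 for IER3 with the GC correction, alone and with the block. With a library left out it ran from -0.31 to 0.031 for FOSL1, -0.16 to 0.12 for FOSL2, -0.43 to 0.19 for JUNB, -0.65 to 0.10 for JUND, -0.039 to 0.12 for EGR1 and -0.34 to 0.11 for IER2. The cause was not tested. DESeq2 gave no adjusted p for FOSB and IVL in HT29 cells, nor for the difference between lines of CTGF and HBEGF.

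The labels do not say whether replicate numbers mark a shared batch. Deviations of same-numbered libraries correlated at 0.10 in HT29 and 0.11 in SW480 cells. With 2 pairs each this cannot settle whether they were paired, and the block was used only as an alternative. JUN had 0.52 in HT29 cells with the block. Groups of 2 libraries and the control libraries of SW480 cells limit what can be resolved for GC-rich genes.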
